A study of Mus musculus with 6 samples.

Results

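The genes described here are 8 members of a pair of families that act on the actin cytoskeleton, among 19680 genes in the deposited table. They are 5 coronins (Coro1a, Coro1b, Coro1c, Coro2a and Coro7) and 3 FGD guanine exchange factors (Fgd2, Fgd3 and Fgd6), matched by gene name, and all 8 were found. The set was assembled around them because Coro2a counts were lower and Fgd2 counts higher in cKO cells, so the contrast of cKO with WT is given for all 8 members as a description with no test. Other members of the same families, Coro2b, Coro6, Fgd1, Fgd4 and Fgd5, are given beside them.

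Gene expression was measured by RNA sequencing of B cells of the germinal center (GC), where antibody genes mutate and cells are selected during an immune response. The 3 cKO libraries came from Senp1flox/flox mice that also carry Cγ1-Cre, and the 3 WT libraries from Senp1flox/flox mice without the Cre, so both groups carry the loxP-flanked Senp1 alleles. Cγ1-Cre is a recombinase driven from the locus of an antibody heavy chain gene that B cells transcribe after activation, so deletion is expected in responding B cells and not in the animal as a whole. All mice were C57BL/6, aged 6 to 8 weeks at immunization, and had received 100 µg of NP-CGG, a hapten linked to a carrier protein, by the intraperitoneal route. Spleens were taken on day 14 and B220+ CD38- FAS+ cells were sorted. Whether the 3 libraries of a group are 3 separate mice is not stated in the labels, so the spread between libraries may be partly technical. The question of the comparison is which transcripts differ when Senp1, a protease that removes the modifier protein SUMO from its targets, is deleted.

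Coronins are actin-binding proteins built on a beta-propeller. Type I coronins (Coro1a, Coro1b and Coro1c) bind actin filaments and the Arp2/3 complex, which nucleates branched filaments, and they help to bring in cofilin, which takes filaments apart. FGD proteins load the small GTPase Cdc42 with GTP, and their PH and FYVE domains bind phosphoinositides of membranes, so they link Cdc42 to membrane compartments such as endosomes. In lymphocytes, branched actin and Cdc42 serve migration, the contact with antigen-bearing cells and the uptake of antigen.

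The cKO libraries held 3019152 to 9657005 gene-assigned reads and the WT libraries 5160902 to 10339054. Replicate 1 of both groups was the deepest of its group and had the lowest share of mitochondrial transcripts (3.66% in cKO and 2.71% in WT, against 12.3% and 19.1% in the other cKO libraries and 7.92% and 9.83% in the other WT libraries). Values below are normalized counts, the reads of a gene divided by a size factor of its library, with means ± SD over the 3 libraries of a group unless said otherwise. Senp1 itself was lower in every cKO library, at 373, 425 and 398, against 915, 868 and 891 in WT. Of the markers of GC B cells, Bcl6, the master regulator of their program, measured 1289 to 2140.4 in cKO and 1698 to 2225 in WT, and Fas, used in the sort, 456 to 604 in cKO and 509 to 587 in WT. Mef2b was at 0 to 5.69 in every library. Over 10 GC B cell markers the sum was 23966, 22330.0 and 20885 in cKO and 24838, 27520.0 and 27266 in WT, lower in every cKO library. Across all genes, limma called 0 of 14678 genes between the groups (0% at a Benjamini-Hochberg adjusted p under 0.05). Senp1 was among the genes not called (limma adjusted p = 0.111). At an unadjusted p under 0.05, limma listed 438 genes higher and 318 lower. On reads recovered from the normalized counts, edgeR and limma-voom called 0 genes, and DESeq2 called 15 higher and 5 lower.

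The sequences around the transcription starts of Coro2a, Coro7 and Fgd2 are shown because these 3 members had no overlap between the groups. Each run covers 250 bases before to 50 after a start in the RefSeq annotation of GRCm38.p6, 5′ to 3′ on the strand of the gene, and 7 of the 8 members had an entry in that table. Capitals mark matches, on either strand, to 3 motifs: GCGTGAC, a core of the PAX5 site, CCGGAA, a core of the ETS family site, and GGG and CC with any 5 bases between them, the outline of an NF-kB site. A match is a description of the letters, not a binding site. The first lies at chr4:46601880-46602179 on the minus strand, the second at chr16:4679671-4679970 on the minus strand and the third at chr17:29360664-29360963 on the plus strand.
Coro2a: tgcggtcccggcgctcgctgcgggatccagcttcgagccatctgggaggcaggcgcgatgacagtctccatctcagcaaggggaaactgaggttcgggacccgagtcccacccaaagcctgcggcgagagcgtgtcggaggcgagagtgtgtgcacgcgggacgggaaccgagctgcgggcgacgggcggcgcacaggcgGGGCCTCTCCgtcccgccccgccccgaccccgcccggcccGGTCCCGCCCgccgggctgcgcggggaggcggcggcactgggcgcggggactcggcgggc
Coro7: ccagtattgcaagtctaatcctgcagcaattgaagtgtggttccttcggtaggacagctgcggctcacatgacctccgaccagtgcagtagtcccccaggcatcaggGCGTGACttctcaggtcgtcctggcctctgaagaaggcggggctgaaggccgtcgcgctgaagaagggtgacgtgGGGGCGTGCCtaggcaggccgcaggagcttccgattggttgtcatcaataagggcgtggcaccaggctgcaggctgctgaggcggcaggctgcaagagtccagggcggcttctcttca
Fgd2: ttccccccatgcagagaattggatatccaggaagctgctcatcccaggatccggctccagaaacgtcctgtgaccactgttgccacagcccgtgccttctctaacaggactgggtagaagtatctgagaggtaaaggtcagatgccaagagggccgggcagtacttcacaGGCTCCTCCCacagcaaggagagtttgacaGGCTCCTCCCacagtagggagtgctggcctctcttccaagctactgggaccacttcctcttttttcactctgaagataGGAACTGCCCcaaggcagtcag
The Coro2a promoter shown is rich in G and C (76%, with 43 CpG pairs), while that of Fgd2 is not (55%, with 4 CpG pairs). A second Coro2a start, at chr4:46566391-46566690 on the minus strand and not shown, has 50% G and C and 3 CpG pairs, below the values of Fgd2. The median over 32851 promoters was 52.7% and 7 CpG pairs. The PAX5 core was present once in the Coro7 promoter and in 2.09% of all promoters, and these letters were not in the windows of Coro2a and Fgd2. The ETS core was in none of these 3 windows and in 14.9% of all promoters. The NF-kB outline was in all 3, with 2 matches in Coro2a, 1 in Coro7 and 3 in Fgd2, and in 50.8% of all promoters.

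Coro2a was the member with the lower cKO level. Coro2a is a type II coronin that has been found in the NCoR corepressor complex, where it ties release of the complex from inflammatory genes to nuclear actin. The gene (ENSMUSG00000028337) lies on chromosome 4 at 46536937 to 46602202 of GRCm38, on the minus strand. It measured 508, 410.0 and 417 normalized counts in cKO replicates 1 to 3, against 733, 761 and 693 in WT replicates 1 to 3. The highest cKO library was below the lowest WT library. The means were 445 ± 54.8 in cKO and 729 ± 34.3 in WT, and the log2 difference of cKO minus WT was -0.72 ± 0.14 (SE), or 0.608 times the WT level. The difference was -0.53 within replicate 1 and -0.81 within replicates 2 and 3. The authors' deposited table gives a log2 fold change of -0.70 for Coro2a. The fewest reads behind a value were 204, in cKO replicate 3, which gives a counting SD of 7.0%. Coro2a shares 329 exon bases with Gm16731 on the other strand, which held at most 2.71 normalized counts (cKO replicate 1).

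Fgd2 was the member with the higher cKO level. It is an exchange factor of antigen-presenting cells, described in B cells, macrophages and dendritic cells, that activates Cdc42 at early endosomes and membrane ruffles. Fgd2 (ENSMUSG00000024013) lies on chromosome 17 at 29360914 to 29379661 of GRCm38, on the plus strand, with no other annotated gene over it. The cKO libraries held 341, 569 and 429 normalized counts, and the WT libraries 171, 200.1 and 237. Every cKO library was above every WT library, and cKO replicate 2 was the highest. The means were 446 ± 115 in cKO and 203 ± 33.0 in WT, a log2 difference of 1.12 ± 0.22 (SE), or 2.17 times the WT level. Replicate 1 alone gave 0.99 on the log2 scale, and replicates 2 and 3 alone gave 1.18. Without cKO replicate 2 it was 0.93. The authors' deposited table gives a log2 fold change of 1.13 for Fgd2.

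**Figure D1:**
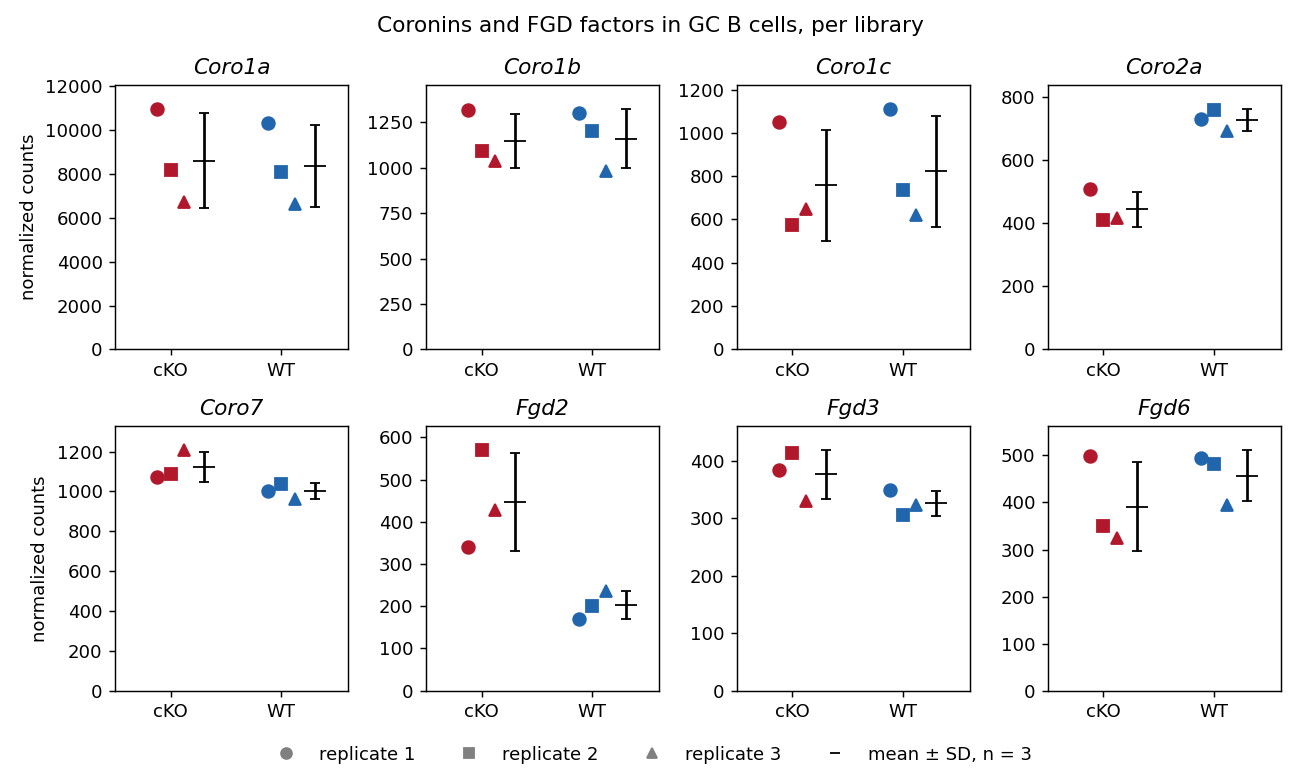
Normalized counts of the 8 members in each cKO library (red, left) and each WT library (blue, right), with the marker shape giving the replicate number and the black bar the mean ± SD of 3 libraries. Coro2a, Coro7 and Fgd2 show no overlap between the groups, and Coro1a, Coro1b and Coro1c are highest in replicate 1 of both groups.

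The type I coronins overlapped between the groups. Coro1a, the coronin of blood cells and the one whose loss in humans causes a severe immunodeficiency with few T cells, was the most abundant member. It measured 10953, 8159.5 and 6698 normalized counts in cKO replicates 1 to 3, against 10335, 8072 and 6631 in WT. Libraries of the same number lay closer together than libraries of the same genotype. The means were 8604 ± 2162 in cKO and 8346 ± 1867 in WT, and the log2 difference was 0.04 ± 0.23 (SE). Coro1a shares 26 exon bases with Bola2 on the other strand. Coro1b, a coronin of broad expression that brings a cofilin-activating phosphatase to branched actin, measured 1317, 1091 and 1036 in cKO and 1299, 1202 and 982 in WT. Its log2 difference was -0.01 ± 0.16 (SE). The annotation places 432 exon bases of Coro1b on the same strand under Ptprcap, so reads there could not be told apart. Ptprcap measured 1033, 757 and 656 normalized counts in cKO and 1033, 821 and 653 in WT, with the same order of replicates within each group as Coro1b. Coro1c, which acts at the leading edge of migrating cells, measured 1049, 575 and 647 in cKO and 1110.1, 736 and 620.2 in WT, with a log2 difference of -0.12 ± 0.27 (SE).

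These 3 genes varied with the replicate number more than with the genotype. Replicate 1 of cKO was 1.47, 1.24 and 1.72 times the mean of the other cKO libraries for Coro1a, Coro1b and Coro1c, and replicate 1 of WT was 1.41, 1.19 and 1.64 times the mean of the other WT libraries. Fgd6 was also highest in replicate 1, at 1.48 times in cKO and 1.13 times in WT. Coro7 did not, at 0.934 times in cKO and 1.00 times in WT. Fgd2 was lowest in replicate 1 of each group, at 0.682 times in cKO and 0.782 times in WT. The summed level of 10 dark zone genes, which mark the dividing GC B cells, was 7911, 4151 and 4978 in cKO replicates 1 to 3 and 9115, 7007 and 5474 in WT, so it too was highest in replicate 1 of each group. Within that list, Foxo1 was lowest in replicate 1 of each group (1027, 1148 and 1085 in cKO and 1192, 1338 and 1521 in WT). Ung was not highest in replicate 1 of either group. The part of the dark zone share, of depth and of the mitochondrial share in these levels was not tested, and in bulk libraries fewer cells of a type and less RNA per cell cannot be told apart.

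Coro7, a tandem coronin that sits at the Golgi and serves membrane traffic in place of the leading edge, had a small gap between the groups. It lies on chromosome 16 at 4626133 to 4679777 of GRCm38, on the minus strand. The cKO libraries held 1071, 1086 and 1207 normalized counts and the WT libraries 1004, 1039 and 960.3. The lowest cKO value (1071 in replicate 1, from 1975 reads) was only just above the highest WT value (1039 in replicate 2, from 976 reads). The fewest reads behind a Coro7 value were 572, in cKO replicate 2, which gives a counting SD of 4.18%. The means were 1121 ± 74.7 in cKO and 1001 ± 39.5 in WT, a log2 difference of 0.16 ± 0.12 (SE), which was 0.08 with library totals as the only scaling. Coro7 overlaps Dnaja3, on the other strand, by 153 exon bases, and no source used here states whether the counting used strand. Dnaja3 measured 347, 264 and 288 in cKO and 305, 328 and 267 in WT. With Coro2a and Fgd2, Coro7 made 3 of 8 members whose groups did not overlap. Over all 14678 tested genes 11.6% had no overlap, 6.28% with higher and 5.28% with lower cKO values, and since the members were picked on this contrast nothing is read from the share.

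The other FGD factors showed smaller differences than Fgd2. Fgd3, which also acts on Cdc42, measured 385, 414 and 331 normalized counts in cKO and 349, 306 and 324 in WT. One cKO library, replicate 3, lay among the WT values. The log2 difference of Fgd3 was 0.20 ± 0.15 (SE). Fgd6, an endosomal exchange factor studied in mouse osteoclasts, measured 499, 349 and 325 in cKO and 495, 481 and 396 in WT. Replicate 1 of both groups was nearly equal for Fgd6, and the lower cKO mean came from replicates 2 and 3. The log2 difference of Fgd6 was -0.24 ± 0.19 (SE), with 0.01 within replicate 1 and -0.37 within replicates 2 and 3.

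**Figure D2:**
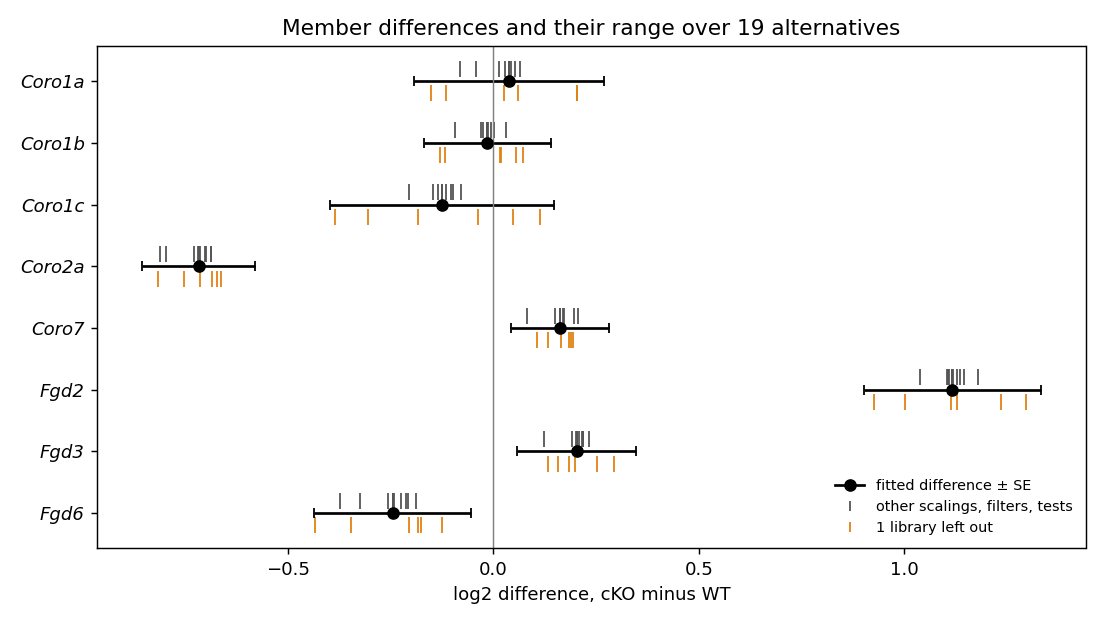
Log2 difference of cKO minus WT for each member (black point with SE), with the value under each other scaling, filter or test (grey ticks, above) and with 1 library left out (orange ticks, below). Coro2a stays between -0.82 and -0.66 and Fgd2 between 0.93 and 1.30, while Coro1a, Coro1b and Coro1c fall on both sides of 0.

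Levels of different genes were set side by side as normalized counts per kilobase of merged exons. On this scale Coro1a was the highest at 3045 ± 651 over the 6 libraries (SD). Next came Coro1b at 360.3 ± 43.6, Coro7 at 143 ± 11.4, Coro2a at 90.9 ± 24.9, Coro1c at 81.7 ± 24.0, Fgd2 at 72.0 ± 34.1, Fgd3 at 58.4 ± 6.78 and Fgd6 at 51.5 ± 9.42. The ranges of Coro1a, Coro1b and Coro7 did not overlap those of their neighbours in this order, and those from Coro2a down did. In cKO the mean per-kilobase level of Fgd2 (99.0 ± 25.6) stood above that of Coro2a (68.9 ± 8.49), though in cKO replicate 1 Fgd2 was at 75.6 and Coro2a at 78.7. In WT it stood below in every library (44.9 ± 7.31 for Fgd2 and 113 ± 5.32 for Coro2a). Of the per-length signal of the 5 coronins, Coro1a made up 84.1%, 82.8% and 79.6% in cKO replicates 1 to 3 and 82.8%, 80.4% and 79.7% in WT. Of that of the 3 FGD members, Fgd2 made up 37.8%, 53.2% and 50.2% in cKO and 24.3%, 28.9% and 34.0% in WT, and these shares do not depend on the scaling between libraries.

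**Figure D3:**
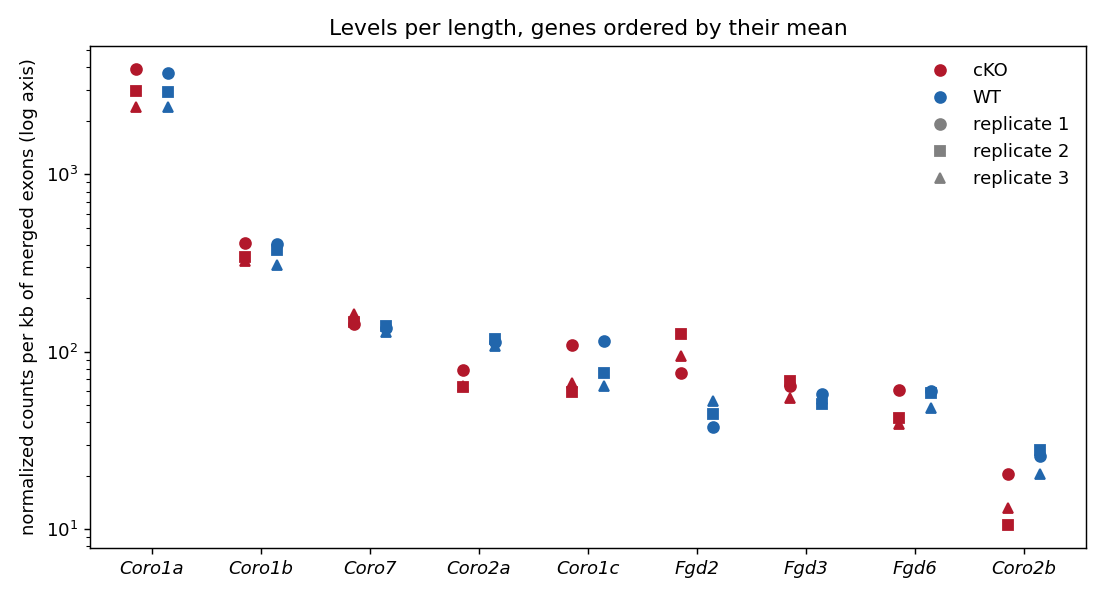
Normalized counts per kilobase of merged exons (log axis) for the 8 members and Coro2b in each cKO library (red, left of each pair) and WT library (blue, right), ordered by the mean over 6 libraries. Coro1a sits at 2383 to 3936, above all the others, and Fgd2 is above Coro2a in cKO replicates 2 and 3 and below it in the other 4 libraries.

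The other family genes were either low or nearly silent. Coro2b, the close relative of Coro2a that is best known from neurons, measured 121, 62.6 and 77.6 normalized counts in cKO and 154, 166 and 121 in WT. The highest cKO library and the lowest WT library were almost equal, at 120.9 and 121.3. The means were 87.1 ± 30.3 in cKO and 147 ± 23.1 in WT, with a log2 difference of -0.79 ± 0.27 (SE). It was not called by limma (unadjusted p = 0.0177, adjusted p = 0.915 over 14678 genes), and the adjusted p was 0.409 or more in each of 19 alternatives. Only 33 reads stood behind the value of cKO replicate 2. Fgd1, mutated in human faciogenital dysplasia, had 5 reads over the cKO libraries and 9 over the WT libraries. Fgd4, mutated in a human peripheral neuropathy, had 6 and 7 reads, and Fgd5, an endothelial exchange factor, 5 reads in cKO and 1 in WT. Coro6, a coronin of muscle, had 2 reads, both in cKO replicate 3, and 0 in WT. No difference was detectable for these 4 genes at this depth, and no fold is given.

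Markers of other cells that the sort could hold were set beside Fgd2, since it is not restricted to GC B cells. Over 10 macrophage and monocyte markers the summed level was 302 to 457 in cKO and 124 to 305 in WT, of which Lyz2 was the highest gene in cKO. Csf1r, the receptor for the macrophage growth factor, measured 56.4, 89.2 and 18.4 in cKO and 33.9, 31.9 and 10.3 in WT, and C1qb and C1qc were at 0 in cKO replicate 3. Fcgr1 and Cd14 were at 0 to 2.53 normalized counts in every library. Over 7 dendritic cell markers the sum was 197 to 321 in cKO and 321 to 399 in WT, nearly all of it Flt3, while Xcr1, Clec9a, Siglech and Batf3 were at 0 to 7.59. The 10 T cell markers summed to 793, 1708 and 517 in cKO and 706, 714 and 613 in WT, and all 10 were highest in cKO replicate 2, the library with the most Fgd2. Most of this sum outside cKO replicate 2 was Lck, at 563, 691 and 470 in cKO and 484, 574 and 498 in WT. Cd3e measured 27.1, 140 and 6.13 in cKO and 20.7, 12.8 and 5.98 in WT. Cd3d, Cd3g and Cd8a were at 0 in cKO replicate 3. The other lists were NK cell markers at 32.7 to 121 in cKO and 14.5 to 92.6 in WT, neutrophil markers (7 of 8 in the table) at 22.5 to 110.1 and 13.7 to 99.0, erythroid markers at 32.5 to 133 and 38.4 to 56.4, and plasma cell markers at 8750.4 to 17942 and 9961 to 14455.

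The summed level of naive or memory B cell genes moved with Fgd2 inside each group. Their sum over 10 genes was 4247, 10570.0 and 6148 in cKO replicates 1 to 3 and 2552, 4588 and 5740.2 in WT, which is the order of Fgd2 within cKO and within WT. The 11 light zone genes summed to 6756, 10215 and 10732 in cKO and 5892, 6843 and 10878 in WT, also lowest in replicate 1 of each group. Not every gene of that list followed the sum. Traf1 was highest in replicate 1 of each group (751, 662 and 686 in cKO and 734, 617 and 580 in WT). Cd83 was lowest in replicate 2 of each group. The summed markers of GC B cells moved with the genotype. Their sum without the general B cell genes, 8 genes chosen after their values were seen, was 10848, 6761 and 8103 in cKO and 12561, 12527 and 11391 in WT, with no overlap and with lower cKO values, as for Coro2a. The part of the cell mixture in the Coro2a and Fgd2 levels was not tested.

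**Figure D4:**
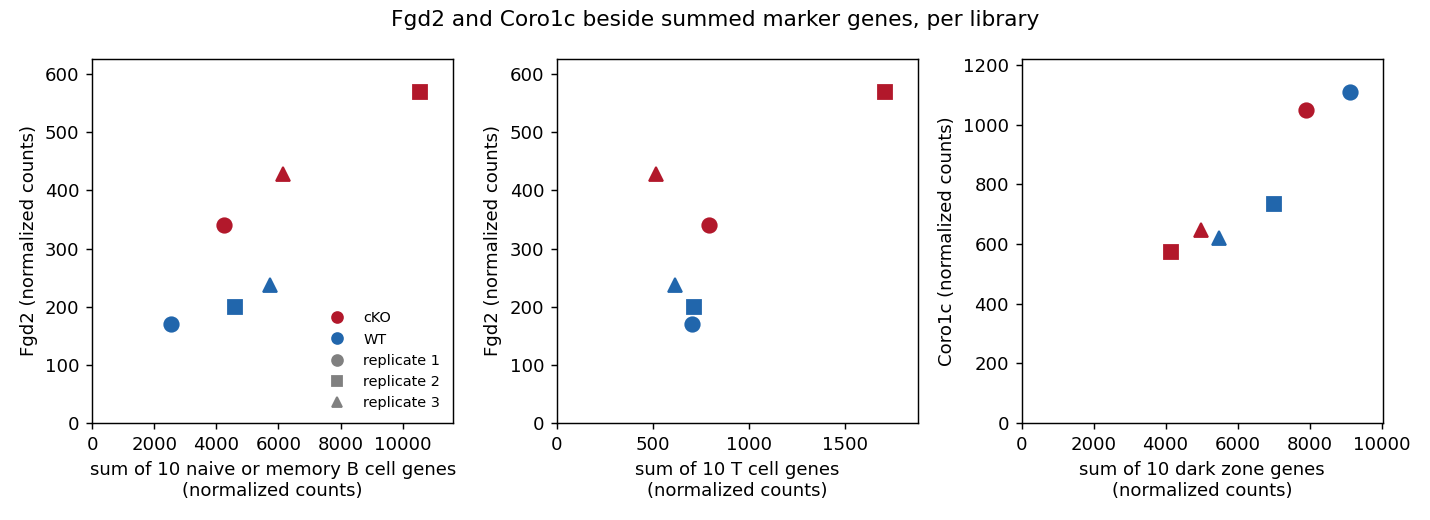
Fgd2 beside the summed level of 10 naive or memory B cell genes (left) and of 10 T cell genes (middle), and Coro1c beside 10 dark zone genes (right), all in normalized counts, with 1 point per library (cKO red, WT blue). Fgd2 is highest in cKO replicate 2 at 569 counts, and cKO replicate 2 stands apart in the left and middle panels. Lck makes up most of the T cell sum in the other libraries.

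The members fell into patterns over the 6 libraries, given as a description over points that share genotype, depth and cell mixture. Coro1a and Coro1b ran together (Pearson r = 0.95, Spearman correlation 0.94 on the log2 scale), and Coro2a and Fgd2 ran opposite (r = -0.97, Spearman correlation -0.94), which the choice of both genes fixes in large part. Among 6779 genes with a mean of at least 100, the profiles most like that of Coro2a were Sfmbt1, Fam111a, Vamp3, Atxn2l and Arcn1 (r of 0.99 for each). Sfmbt1 measured 239, 184 and 202 normalized counts in cKO and 345, 395 and 352 in WT. The most opposite were Rgs14 and Atp13a1 (r of -0.99 for both). Rgs14, a regulator of G protein signalling, measured 307, 336 and 347 in cKO and 234, 230.0 and 249 in WT. The profiles most like that of Fgd2 were Dennd1c, Cyth4, Plec, Rhof and Galnt6 (r of 0.98 to 0.99), and the most opposite were Vps26a and Csnk1e (r of -0.99 for both). Rhof encodes a small GTPase of filopodia and measured 602, 697 and 609 in cKO and 469.6, 512 and 543 in WT. Cyth4, an exchange factor for ARF GTPases, measured 507, 586 and 564 in cKO and 391, 400.3 and 440.0 in WT. Every named profile separated the groups, which the choice of profiles by their likeness to Coro2a and Fgd2 fixes in large part.

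The partners of coronins and FGD factors in the actin pathway were examined as 8 lists that include the other family genes, with 103 of 115 genes tested. No list member was called by limma in either direction (0 of 103, smallest adjusted p 0.915), beside 0% of all genes. The same fit did not call the deleted gene Senp1 (log2 difference -1.16, limma adjusted p = 0.111), so 0 calls cannot show that the lists were unchanged. At an unadjusted p under 0.05, 3 list members were higher and 4 lower, beside 2.98% and 2.17% of all genes. The 10 Arp2/3 complex subunits, which coronins bind, had a median log2 difference of -0.12, beside -0.00185 over all genes, and 8 of 10 were below 0. Among them Actr2 measured 3348 ± 144 in cKO and 3784 ± 422 in WT, Actr3 6010 ± 496 and 6798 ± 852, and Arpc3 2304 ± 383 and 2567 ± 75.8. Actr3b, a minor form of Actr3, ran the other way at 38.5 ± 9.05 in cKO and 29.2 ± 5.15 in WT, with the largest difference of the list (log2 0.37 ± 0.32 SE, limma adjusted p = 0.931). The 15 tested WASP and WAVE activators, which switch Arp2/3 on, had a median of -0.14 with 11 below 0. Cyfip2, a WAVE subunit, was at 4340 ± 840 in cKO and 5455 ± 786 in WT, and Nckap1l, the WAVE subunit of blood cells, at 2470 ± 200 and 2836 ± 146. Abi2, also of the WAVE complex, was at 104 ± 9.99 in cKO and 131 ± 15.7 in WT, and Wipf1, a partner of WASP, at 1779 ± 133 and 2021 ± 174. Over 19 alternatives the medians of these lists ran from -0.23 to -0.08 and from -0.22 to -0.07, so neither changed sign. The value of -0.22 came with library totals alone, where the median over all genes was itself -0.08. The 4 tested genes among the other coronins and FGD factors had 3 values above 0 and 1 below, but the 3 above 0 rested on the few reads given above.

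Among the 15 genes of cofilin and filament turnover the median was -0.06, with 7 above and 8 below 0. Dstn, a depolymerizing relative of cofilin, measured 565, 509 and 486 in cKO and 571, 752 and 648 in WT. Limk1, a kinase that switches cofilin off, measured 20.6, 41.8 and 26.6 in cKO and 9.61, 20.2 and 14.5 in WT. The cofilin-activating phosphatases Ssh2 and Ssh1 overlapped between the groups, with Ssh2 at 524 ± 113 in cKO and 649 ± 99.1 in WT and Ssh1 at 203 ± 47.5 and 168 ± 38.1. Cdc42, the target of FGD factors, measured 2533, 2750.2 and 2363 in cKO and 2641, 2823 and 2683 in WT, a log2 difference of -0.09 ± 0.12 (SE). Rhoa was at 2229 ± 150 in cKO and 2637 ± 121 in WT and Rac1 at 1250 ± 58.5 and 1449 ± 93.7. Rhov had 4.02 ± 4.79 in cKO and 0.453 ± 0.430 in WT, on few reads. Rhof, given above, had a log2 difference of 0.32 ± 0.13 (SE, limma adjusted p = 0.915).

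The 21 tested exchange factors of other families had a median of 0.18, with 14 above 0, and 0.04 without cKO replicate 2. Dock9, an exchange factor for Cdc42, measured 132, 190 and 143 in cKO and 231, 247 and 245 in WT, with no overlap. Its log2 difference was -0.65 ± 0.18 (SE, limma adjusted p = 0.915). Vav3 and Dock6 were higher in every cKO library. Vav3 measured 9.76, 15.2 and 24.5 in cKO and 8.59, 3.19 and 5.13 in WT, a log2 difference of 1.39 ± 0.53 (SE, limma adjusted p = 0.915) on few reads. Dock6 measured 32.0, 32.3 and 57.2 in cKO and 25.3, 19.2 and 26.5 in WT, a log2 difference of 0.71 ± 0.35 (SE). Vav1, the main Vav factor of lymphocytes, was at 1662 ± 122 in cKO and 1401 ± 121 in WT. Among 18 tested Cdc42 effectors the median was 0.03, with 9 on each side of 0, and Tnk2, a kinase bound by active Cdc42, was at 441 ± 18.8 in cKO and 365 ± 28.6 in WT. Cdc42se2, a small Cdc42-binding protein, was at 857 ± 145 in cKO and 1014 ± 44.9 in WT. Cdc42bpa and Cdc42ep4 rested on few reads, with means of 0.362 and 10.5 normalized counts in cKO and 3.96 and 3.37 in WT. The 6 genes of the NCoR complex, in which Coro2a has been found, had a median of -0.10, with Tbl1x, a subunit that exchanges the complex for coactivators, at 669, 687 and 572 in cKO and 756, 845 and 797 in WT. Ncor1 was at 1656 ± 252 in cKO and 1840 ± 95.5 in WT and Hdac3, its histone deacetylase, at 471 ± 115 and 474 ± 29.9, so both overlapped between the groups. Tbl1xr1, the close relative of Tbl1x, was at 575 ± 76.4 in cKO and 674 ± 108 in WT, and Gps2, a small subunit, at 466 ± 127 and 406 ± 59.2. Over the alternatives the list medians for cofilin and filament turnover (-0.14 to 0.02) and Cdc42 effectors (-0.08 to 0.13) fell on both sides of 0, while that of the NCoR complex stayed below 0 (-0.18 to -0.05). The lowest cofilin and NCoR medians came with library totals alone, where the median over all genes was -0.08.

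**Figure D5:**
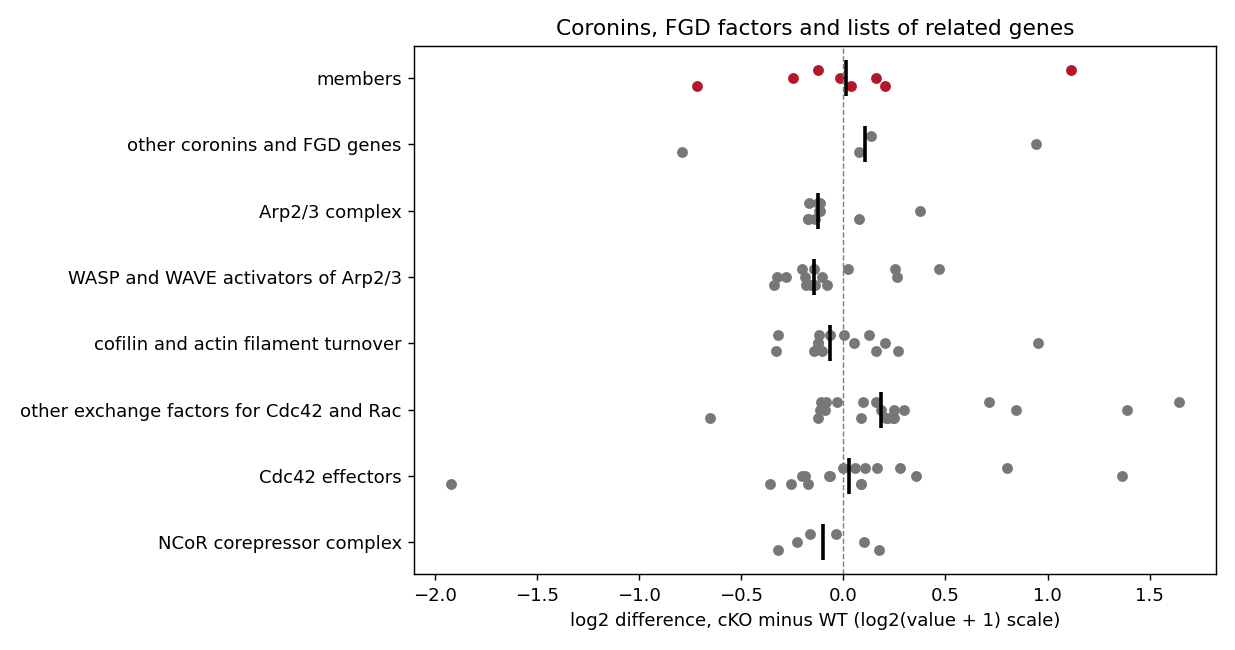
Log2 difference of cKO minus WT for the 8 members (red) and for the tested genes of 7 lists of related genes (grey), with the median of each row as a black tick and the median of all 14678 tested genes as a dashed line. Coro2a and Fgd2 lie at -0.72 and 1.12, while most genes of the Arp2/3 complex and of the WASP and WAVE list lie just below 0.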

How the data were processed

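The 6 libraries were grouped by their titles. Per the submitters' processing notes, DESeq2, HTSeq, HISAT2, HISAT, TopHat2 and SAMtools were used on the mm10 genome, with no versions or order listed. The annotation, strand setting and handling of multi-mapping reads were not stated.

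The deposited library columns hold a signal per gene, read counts scaled by the size factor of each library. The authors' deposited table adds their log2 fold change, a test score and p-values, per the file headers. Every value was a whole multiple of its column's smallest value (100% in each library, tolerance 0.01 read), so reads were recovered. A read was worth 0.542 to 2.04 normalized counts in cKO and 0.506 to 1.06 in WT, so low genes are least precise in cKO replicates 2 and 3. Counting SDs cover counting error only.

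Differences came from limma 3.58.1 (R 4.3.3) with its trend option on log2(value + 1), over genes with a mean of at least 1. The added 1 understates changes of low genes. P-values were Benjamini-Hochberg adjusted over all tested genes. edgeR 4.0.16, DESeq2 1.42.0 and limma-voom on the recovered reads were alternatives. The fits were tested on simulated data. Positions and merged exon lengths came from GENCODE M21 (GRCm38, which mm10 names). Whether replicate numbers pair libraries was checked from deviations from the group means.

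Members and gene lists were chosen with earlier results of these data known. Named genes are all family genes and the 4 members of each list with the smallest p. The closest and most opposite profiles to Coro2a and Fgd2, marker genes and some genes overlapping a member are also named. Cdc42 and Hdac3, beyond that rule, were named after their values were seen. The median of 1 list and 1 of the 11 GC B cell markers are not reported here.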

Additional observations from a re-analysis of the deposited data

How the results depend on the processing

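Each of 19 alternatives (other pseudocounts, filters, scalings and tests, and leaving out 1 library) was run. Coro2a (-0.82 to -0.66), Fgd2 (0.93 to 1.30), Coro7 (0.08 to 0.21), Fgd3 (0.12 to 0.29) and Fgd6 (-0.43 to -0.12) kept the sign of their log2 difference in all 19. Coro1a changed sign in 4, Coro1b in 6 and Coro1c in 2, with values of -0.15 to 0.20, -0.13 to 0.07 and -0.38 to 0.11. Of 152 member values, 151 moved by less than 1 SD of the libraries and 1 by more, Coro7 with library totals alone. The filters on low values, the replicate block and the term for replicate 1 cannot change these differences, so their part of the 152 values was fixed in advance. Coro2a and Fgd2 were chosen on this contrast, so their steady sign is a description and not a test.

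Calls over all genes were 20 by DESeq2, 1 with the replicate block, 3 with a term for replicate 1 and 0 in every other alternative, including each left-out library. No gene of the related lists was called in any. Senp1 had a log2 difference of -1.16 (limma adjusted p = 0.111) and passed by DESeq2 (-1.17, adjusted p = 2.78e-09) and with the term for replicate 1 (-1.16, adjusted p = 0.0160). With 1 library left out it was -1.21 to -1.11. The labels call the mice paired without saying that the numbers mark pairs. Deviations of same-numbered libraries correlated at 0.49, 0.05 and 0.20, and only replicates 1 and 3 correlated best with their own number. With 3 libraries per group, these values cannot decide whether the numbers mark pairs. With the replicate block, Senp1 had an adjusted p of 0.0586. Low depth in cKO replicates 2 and 3 limits Coro2b and the near-silent family genes.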
